A study of Mus musculus with 12 samples.

Results

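The libraries described here are the 4 mouse embryonic stem cell (ESC) arrays labelled ESC WT 1, ESC WT 2, ESC HP1aKO 1 and ESC HP1aKO 2, out of 12 arrays in all. They were chosen by 1 measured value, the signal of Cbx5, the gene that encodes HP1α and that was targeted in the HP1aKO cells. ESC WT 2 and ESC HP1aKO 1 lay under a log2 signal of 9, and ESC WT 1 and ESC HP1aKO 2 lay over it. Each side of that line thus held 1 library of each label and 1 library of each replicate number, and in ESC WT 2 and ESC HP1aKO 2 the Cbx5 signal went against the label. For this reason no mean and no test was taken along the Cbx5 line. Each library is given by its own value, under the name it was labelled with, and all tests compare the groups as labelled.

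The ESC WT libraries were labelled as the HM1 line and the ESC HP1aKO libraries as R1 cells lacking HP1α, so genotype and line cannot be told apart. The study's methods describe HM1 as the littermate control. HM1 is known as a line without a working Hprt gene. The ESCs were cultured on mouse fibroblast feeders and selected for the surface marker SSEA1 with magnetic beads. EB WT and EB HP1aKO, with 2 arrays each, were embryoid bodies (EBs) at day 7, aggregates in which ESCs differentiate once leukaemia inhibitory factor is withdrawn. The remaining 4 arrays were R1 cells lacking HP1β, the product of Cbx1, as ESCs (ESC HP1bKO) and as EBs. The methods call the 2 samples of a group biological. The sources used here do not say whether they were separate cultures, so p-values measure the spread between these samples only. The median signal over the genes tested was between 7.10 and 7.25 (log2) on these 4 arrays, and 84.6% to 85.8% of genes exceeded a signal of 45 on each. In such bulk samples, fewer cells of a type and less RNA per cell cannot be told apart.

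HP1α is a chromodomain protein that binds histone H3 methylated at lysine 9 and helps to hold heterochromatin compact. Its paralogues HP1β and HP1γ are encoded by Cbx1 and Cbx3. Imprinted genes, which recur below, are expressed from the copy inherited from 1 parent only, as set by DNA methylation laid down in the germ line, and ESC lines are known to lose or gain such marks in culture.

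Cbx5 had a log2 signal of 9.66 in ESC WT 1, 8.29 in ESC WT 2, 8.04 in ESC HP1aKO 1 and 10.00 in ESC HP1aKO 2. The ESC HP1bKO libraries were at 9.72 and 9.88. The labelled groups overlapped, since the highest and the second lowest of the 4 values belonged to ESC HP1aKO 2 and ESC WT 2. Within the number 1 libraries Cbx5 was 3.08-fold lower in HP1aKO than in WT, and within the number 2 libraries it was 3.27-fold higher. By label the difference was 0.04 ± 0.70 on the log2 scale (limma's SE, 2 against 2 arrays, adjusted p = 0.9999). Whether the probes of this feature lie inside the deleted part of Cbx5 is not given in the sources used, so the signal checks the labels only as far as the transcript was lost.

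The EB arrays, which had no part in the choice of the libraries, did not show this disagreement. Cbx5 was at 10.36 and 10.40 in the EB WT pair and at 9.20 and 9.21 in the EB HP1aKO pair. Both EB HP1aKO libraries were thus below both EB WT libraries, by 1.18 ± 0.08 on the log2 scale, or 2.26-fold (adjusted p = 0.000226). Among the paralogues, Cbx1 was at 9.45, 10.01, 10.05 and 9.63 in ESC WT 1, ESC WT 2, ESC HP1aKO 1 and ESC HP1aKO 2, opposite to Cbx5 in order but with a gap of only 0.38. It was at 7.59 and 7.99 in ESC HP1bKO, below all 4. Cbx3 lay between 11.18 and 11.57 and did not split in this way.

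For each of the 10880 genes above a signal of 45 on at least 1 array, the 4 libraries can part 2 against 2 by label, by replicate number, or crossed, as Cbx5 did. The gap is the distance on the log2 scale between the lower of the 2 upper libraries and the higher of the 2 lower ones. In the ESCs 31% of genes parted crossed, 12.6% by label and 56.4% by number. In EB WT and EB HP1aKO the shares were 18.3% crossed, 58.8% by label and 22.9% by number. At a gap of at least 2-fold the ESC libraries had 21 crossed genes, 161 genes that parted by number (75 higher in number 1, 0.689%, and 86 higher in number 2, 0.79%) and 0 that parted by label. The EB libraries had 0, 0 and 118.

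**Figure D1:**
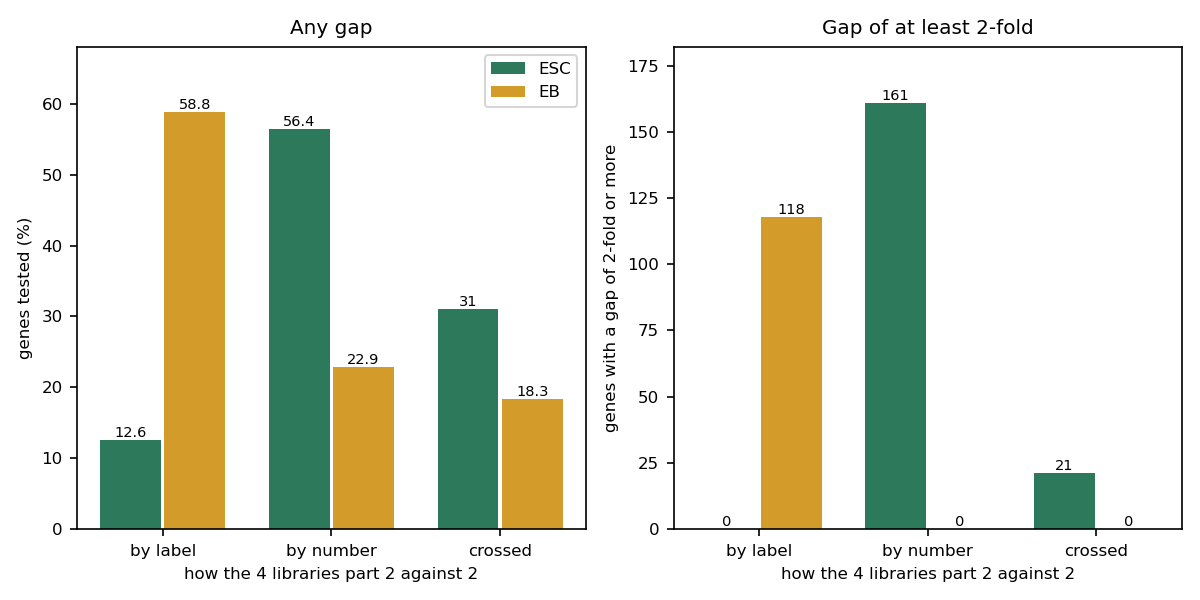
Share of genes tested (left, %) and number of genes with a gap of at least 2-fold (right), for the 3 ways in which 4 libraries can part 2 against 2, in ESC WT and ESC HP1aKO (green) and in EB WT and EB HP1aKO (yellow). In ESCs 161 genes parted by number, 21 crossed and 0 by label, and in EBs all 118 parted by label.

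The distances between whole libraries ran by number. ESC WT 2 and ESC HP1aKO 2 were the closest of the 6 pairs, with an SD of 0.302 for the difference over genes and 80 genes at least 2-fold apart. ESC WT 1 and ESC HP1aKO 1 followed with 0.373 and 200 genes. The ESC WT libraries were the farthest apart, at 0.574 and 843 genes, and the ESC HP1aKO libraries differed by 0.496 and 548 genes. Of the crossed pairs, ESC WT 1 and ESC HP1aKO 2, which both had high Cbx5, differed by 0.517 and 650 genes, more than the ESC HP1aKO libraries. The distance was 0.437 and 405 genes for ESC WT 2 and ESC HP1aKO 1, which both had low Cbx5, and both crossed pairs were farther apart than either pair of 1 number. Libraries alike in Cbx5 were therefore not the libraries most alike over all genes.

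The label comparison in ESCs called 0 of 10880 genes with limma (0%), against 17 at an unadjusted p under 0.05 (0.156%). The rule of the study's methods, read as at least 1.5-fold in the same direction in every pair of arrays, also selected 0. The study itself reports some altered genes in these ESCs at 1.5-fold, so this reading is not the rule as the study applied it. The genes with the lowest p were Aard, Jag1, Macrod2, Rny3 and Edn1. Jag1, a Notch ligand, was at 7.46 and 7.60 in ESC WT and at 8.08 and 8.03 in ESC HP1aKO, and differed by 0.52 ± 0.19 (adjusted p = 0.9999). Jag1 parted by label without overlap, unlike Cbx5, and in EBs it was 0.70 ± 0.08 higher in HP1aKO (adjusted p = 0.00234). The difference within number 1 and that within number 2 were opposed across genes: Pearson's r was -0.518 over the 10880 genes, which are not independent of each other.

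**Figure D2:**
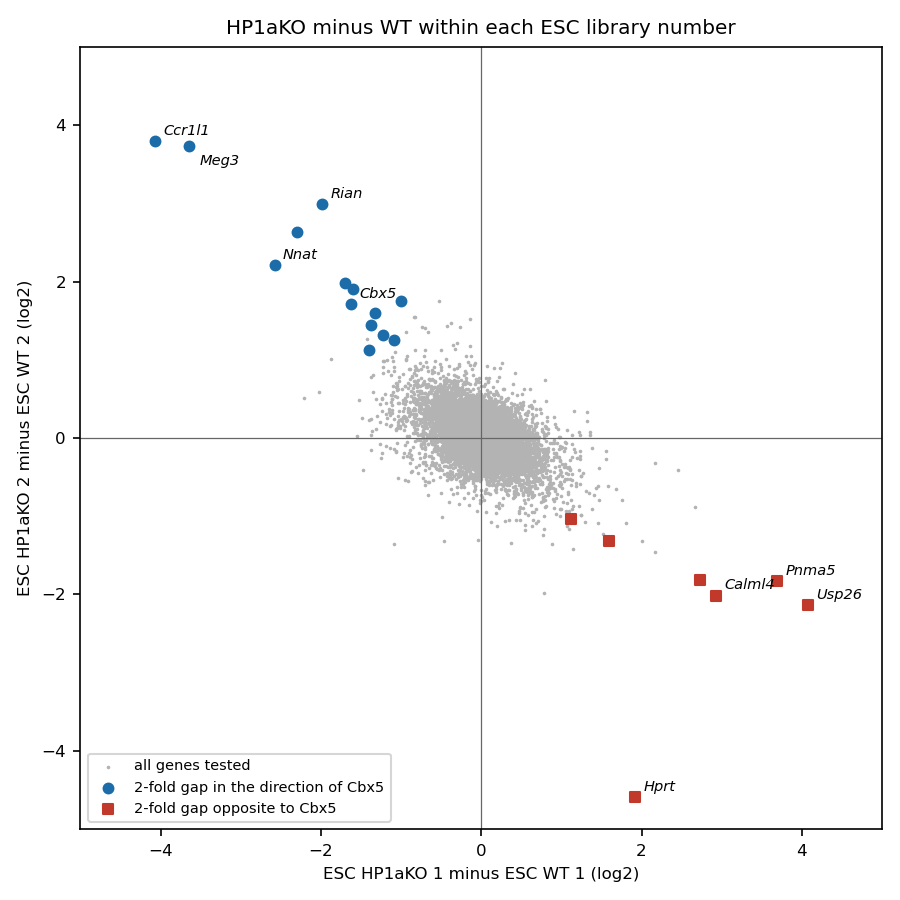
Log2 difference between ESC HP1aKO and ESC WT within the number 1 libraries (horizontal) and within the number 2 libraries (vertical), 1 point per gene tested. Blue circles and red squares are the 14 and 7 genes with a gap of at least 2-fold in the direction of Cbx5 and opposite to it, and sit at the upper left and lower right by construction. Meg3 is at -3.64 and 3.74, and Hprt at 1.92 and -4.59.

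A gap of at least 2-fold in the direction of Cbx5, high in ESC WT 1 and ESC HP1aKO 2, was found for 14 genes (0.129% of genes tested), Cbx5 included. The opposite gap was found for 7 genes (0.0643%). Any gap in either direction was equally frequent, with 1685 genes (15.5%) each. These counts describe the 4 libraries and carry no test, since the libraries were lined up by a gene measured on them. The last gene inside the threshold was Macroh2a2, with a gap of 1.00, and the first outside was Sgce, with 0.93. On the opposite side Grhl2 was inside with 1.03 and Zfp980 outside with 0.92.

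**Figure D3:**
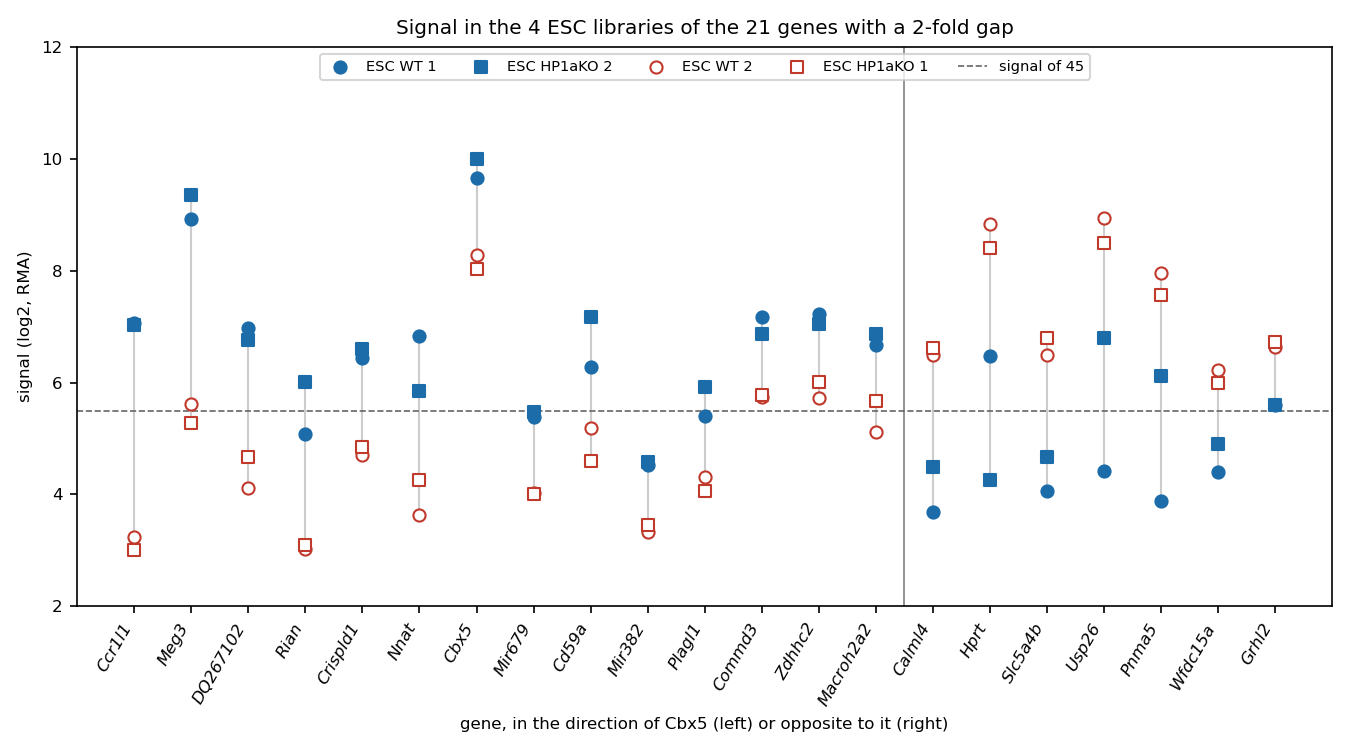
Log2 signal of the 21 genes in ESC WT 1 and ESC HP1aKO 2 (filled blue circles and squares) and in ESC WT 2 and ESC HP1aKO 1 (open red circles and squares). The dashed line is a signal of 45, and the vertical line separates the 14 genes in the direction of Cbx5 from the 7 opposite to it. The widest gaps are 3.80 for Ccr1l1 and 3.31 for Meg3.

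Of the 14 genes, 5 lay in the imprinted Dlk1–Dio3 interval of chromosome 12 and 2 more were on the list of other imprinted genes. Of the 10880 genes tested, 28 were on that list and 15 lay in the interval. Meg3, a maternally expressed long noncoding RNA of that interval, had log2 signals of 8.93 in ESC WT 1, 5.62 in ESC WT 2, 5.28 in ESC HP1aKO 1 and 9.36 in ESC HP1aKO 2. Rian, a maternally expressed RNA of the same interval that hosts small nucleolar RNAs, was at 5.08, 3.01, 3.10 and 6.01 in the same order. DQ267102, annotated as a small nucleolar RNA of this interval, was at 6.97, 4.12, 4.67 and 6.75. In all 3, ESC WT 2 lay beside ESC HP1aKO 1 near or below the signal of 45 (log2 5.49), and the ESC HP1bKO libraries lay with the high pair, Meg3 at 9.37 and 9.52.

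The interval also gave a pair of microRNA genes, Mir679 and Mir382. Their mature sequences are shown because these genes carried the same split as Meg3. They are from RefSeq (GRCm38.p6, plus strand, 5′ to 3′, seed of bases 2 to 8 in capitals), with miR-679-5p at chr12:109715587-109715608, miR-679-3p at chr12:109715624-109715645, miR-382-5p at chr12:109733781-109733802 and miR-382-3p at chr12:109733819-109733840.
mmu-miR-679-5p: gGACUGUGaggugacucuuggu
mmu-miR-679-3p: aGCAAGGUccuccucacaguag
mmu-miR-382-5p: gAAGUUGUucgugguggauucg
mmu-miR-382-3p: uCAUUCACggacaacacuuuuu
No seed was shared among them. The array features stand for the genes and not for a mature arm. Mir679 was at 5.39, 4.02, 4.01 and 5.48 in ESC WT 1, ESC WT 2, ESC HP1aKO 1 and ESC HP1aKO 2, and Mir382 at 4.53, 3.32, 3.44 and 4.58. Both were below a signal of 45 in all 4 libraries and were tested only because an EB or ESC HP1bKO array exceeded it.

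Outside chromosome 12, paternally expressed Nnat, which encodes the small membrane protein neuronatin, was at 6.83, 3.64, 4.25 and 5.85. Plagl1, a paternally expressed zinc finger factor, was at 5.40, 4.32, 4.07 and 5.92. Sgce, paternally expressed and just outside the threshold, was at 7.18, 5.92, 5.97 and 6.90. Of the 28 other imprinted genes tested, outside the Dlk1–Dio3 interval, 8 parted crossed (28.6%, against 31% of all genes) and 19 by number. At any size of gap, these imprinted genes thus did not part crossed more often than all genes. At 2-fold or more, 2 of the 28 (Nnat and Plagl1) went with Cbx5, against 14 of the 10880 genes tested. At 1.5-fold or more, 3 of the 28 did, against 42 of the 10880. These shares were not tested. Igf2, Cdkn1c, Ndn, Mest and Peg10 all parted by number.

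The other genes in the direction of Cbx5 were of mixed kinds. Ccr1l1, a chemokine receptor-like gene, had the widest gap, at 7.07, 3.24, 3.003 and 7.03 in ESC WT 1, ESC WT 2, ESC HP1aKO 1 and ESC HP1aKO 2, or 13.9-fold between the nearest values of the pairs. Crispld1, a secreted cysteine-rich protein, was at 6.44, 4.70, 4.84 and 6.61. Cd59a, a surface inhibitor of complement, was at 6.29, 5.18, 4.59 and 7.17. The gaps were narrower for Commd3, the palmitoyltransferase gene Zdhhc2 and Macroh2a2, a histone variant linked to inactive chromatin, with 1.08, 1.04 and 1.00. Of the 14 genes, 11 had at least 1 of the 4 libraries below a signal of 45, where differences in signal are less well measured.

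The 7 genes opposite to Cbx5 were high in ESC WT 2 and ESC HP1aKO 1. Hprt, the X-linked purine salvage enzyme, was at 6.48 in ESC WT 1, 8.84 in ESC WT 2, 8.40 in ESC HP1aKO 1 and 4.25 in ESC HP1aKO 2. ESC WT 1 was thus between the high pair and ESC HP1aKO 2. The ESC HP1bKO libraries, labelled as R1 cells like ESC HP1aKO, were at 4.66 and 4.56. Of the 20 genes of purine salvage and synthesis tested, 1 had a 2-fold crossed gap, Hprt itself. Another 1 had a 2-fold gap by number, higher in number 1. Aprt, the adenine salvage enzyme, lay between 8.56 and 8.71.

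Usp26, an X-linked deubiquitinase gene, was at 4.42, 8.94, 8.49 and 6.80 in ESC WT 1, ESC WT 2, ESC HP1aKO 1 and ESC HP1aKO 2. Pnma5, also X-linked, was at 3.88, 7.95, 7.57 and 6.12. Here ESC HP1aKO 2 was the library between, not ESC WT 1 as for Hprt, so these X-linked genes shared the high pair but not the order of the low one. X held 3 of the 7 genes and 3.25% of genes tested. Between Usp26 and Hprt on the chromosome, the 4 genes tested (Gpc4, Gpc3, Ccdc160 and Phf6) had no opposite gap, and Phf6, the nearest to Hprt of these, was at 8.84, 8.34, 8.27 and 8.68.

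Calml4, a calmodulin-like gene, was at 3.69, 6.50, 6.62 and 4.49, and Slc5a4b, of the sodium/glucose transporter family, at 4.07, 6.49, 6.80 and 4.67. Wfdc15a, a protease inhibitor-like gene, was at 4.40, 6.22, 5.99 and 4.91. Grhl2, a transcription factor of epithelial cells, was at 5.60, 6.63, 6.72 and 5.60. None of these 4 exceeded 6.80 in any of the 4 libraries, and all but Grhl2 fell below a signal of 45 in the low pair. Just outside the threshold, Xbp1, the transcription factor of the unfolded protein response, was at 8.11, 9.21, 9.11 and 8.30, and Tex19.1, a methylation-sensitive germline gene, at 4.98, 7.50, 7.65 and 6.62.

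The rest of the opposite runners-up were narrower. Notum, which encodes a Wnt-inactivating enzyme, was at 6.30, 7.20, 7.29 and 6.21 in ESC WT 1, ESC WT 2, ESC HP1aKO 1 and ESC HP1aKO 2. Cbr3, a carbonyl reductase gene, was at 6.83, 7.65, 8.64 and 6.56. Zfp980, Plk3, Usp36 and Zbtb8a had gaps from 0.79 to 0.92. That the Wnt antagonist gene and the reductase gene had both labels on each side follows from the definition of a crossed gap.

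The ESC HP1bKO libraries had no part in the gaps. Set against the middle of each gap, both lay in the upper part for 9 of the 14 genes in the direction of Cbx5, both in the lower part for 2 (Crispld1 and Macroh2a2) and 1 in each for 3 (Ccr1l1, Cd59a and Commd3). For the 7 opposite genes both lay in the upper part for 2 (Slc5a4b and Grhl2), both in the lower part for 4 and 1 in each for Wfdc15a. Among these listed genes, the HP1bKO libraries, which carry an intact Cbx5 by label, lay more often with the libraries high in Cbx5. The 9 genes include Cbx5 itself, and Meg3, Rian, DQ267102, Mir679 and Mir382 of a single interval. Mir679 and Mir382 were tested only because an EB or ESC HP1bKO array exceeded the limit on signal. No share over all genes was taken, so the count cannot show whether the HP1bKO libraries went with high Cbx5 more widely. That count is a description of 2 further libraries and was not tested.

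The same 21 genes were then read in the EB libraries, by label. In EBs 1320 genes were called between HP1aKO and WT (12.1%), of which 766 were higher (7.04%) and 554 lower (5.09%) in HP1aKO. Of the 14 genes in the direction of Cbx5, 11 were called lower in EB HP1aKO, Cbx5 included, and 0 higher. Without the 2 microRNA genes that were below a signal of 45 in all 4 ESC libraries, 9 of 12 were called lower. The median difference of the 14 was -1.50, against 0.03 over all genes tested, with Cbx5 and the 2 microRNA genes included. Those 2, Meg3, Rian and DQ267102 lie in a single interval, so the 11 are not independent of each other. Of the 7 opposite genes, 3 were called higher in EB HP1aKO and 0 lower, with a median of -0.02.

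**Figure D4:**
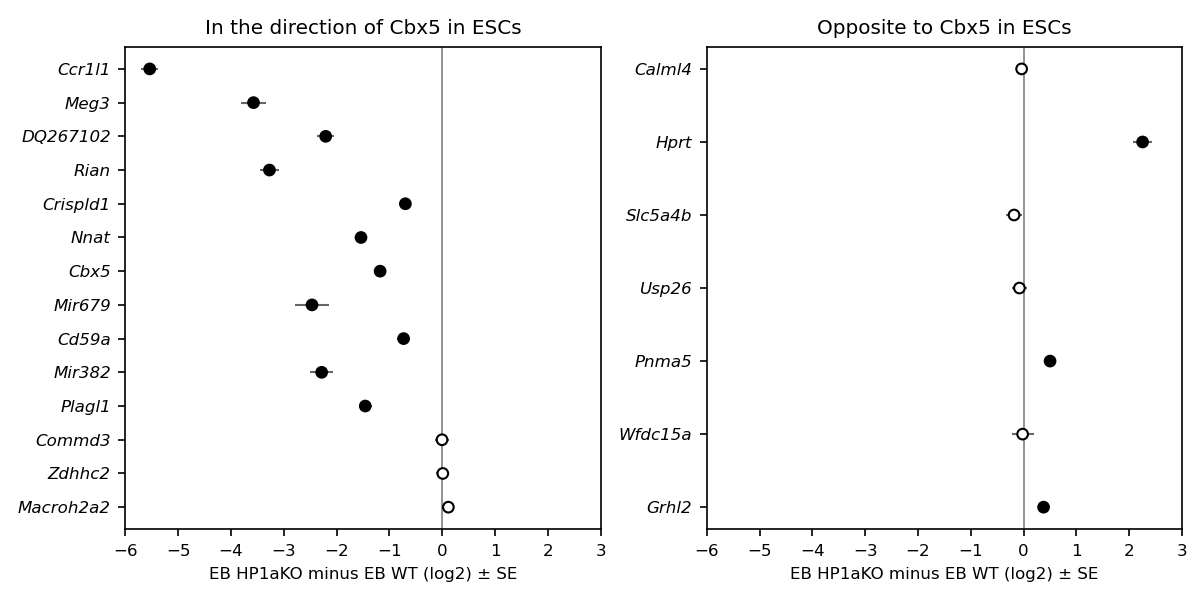
Log2 difference between EB HP1aKO and EB WT (2 arrays each) ± limma's SE for the 14 genes in the direction of Cbx5 in ESCs (left) and the 7 opposite to it (right). Filled points passed an adjusted p of 0.05. On the left 11 of 14 points are filled and lie below 0, from -0.70 for Crispld1 to -5.54 for Ccr1l1.

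In EBs, Ccr1l1 was at 8.36 and 8.31 in the WT libraries and 2.86 and 2.73 in the HP1aKO libraries, lower by 5.54 ± 0.16 (adjusted p = 1.57e-05). Meg3 was at 9.73 and 9.31 with the WT label and 6.27 and 5.61 with the HP1aKO label, lower by 3.57 ± 0.23 (adjusted p = 0.000186). In each case the EB HP1aKO libraries were on the side of ESC HP1aKO 1, and the EB WT libraries on the side of ESC WT 1. The library labelled ESC HP1aKO 2 was at 7.03 for Ccr1l1 and 9.36 for Meg3, nearer to the EB WT values than to those of EB HP1aKO, and the library labelled ESC WT 2, at 3.24 and 5.62, was nearer to the EB HP1aKO values. Among the genes called lower, Nnat and Plagl1 were not placed in this way. Every ESC WT and ESC HP1aKO library lay below both EB pairs for these genes, and so nearer to EB HP1aKO.

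Rian was lower in EB HP1aKO by 3.27 ± 0.17 and Nnat by 1.54 ± 0.08 (adjusted p = 0.000116 each). Plagl1 fell by 1.46 ± 0.13 (adjusted p = 0.000629), from 8.27 and 8.50 to 6.84 and 7.02. Crispld1 and Cd59a fell by 0.70 ± 0.11 and 0.73 ± 0.13 (adjusted p = 0.00785 and 0.011), and their calls were lost when either EB HP1aKO library was left out. Commd3, Zdhhc2 and Macroh2a2 differed by -0.0037 ± 0.14, 0.01 ± 0.12 and 0.12 ± 0.11 and were not called, with adjusted p from 0.57 to 0.99.

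Hprt was at 4.22 and 4.40 in both EB WT libraries and rose to 6.28 and 6.84 in those of EB HP1aKO, higher by 2.25 ± 0.19 (adjusted p = 0.000523). The EB HP1aKO libraries were thus above the EB WT libraries, the order of the number 1 ESC libraries and the reverse of the number 2 ESC libraries. Pnma5 was higher by 0.50 ± 0.09 (adjusted p = 0.0122) and Grhl2 by 0.38 ± 0.10 (adjusted p = 0.0491), both at low signals. Pnma5 lost its call when either EB HP1aKO library was left out (adjusted p = 0.138 and 0.0558) and with a trended prior (0.0573), and Grhl2 lost its call in most other settings. Calml4, Slc5a4b, Usp26 and Wfdc15a lay between 3.17 and 4.05 in all 4 EB libraries, below a signal of 45, and were not called.

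These EB calls rest on the spread among EB libraries. With 1 spread shared over all 12 arrays, which includes the differences between the ESC replicates, 1 of the 14 genes (Mir382) and 0 of the 7 were called, and EB calls over all genes fell from 1320 to 135. The differences themselves did not change between these fits.

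The Dlk1–Dio3 interval was then followed gene by gene. RefSeq lists 103 genes from Dlk1 to Dio3, of which 47 were on the array and 15 above the signal of 45 on some array. Of the 47, 21 had a gap in the direction of Cbx5 (44.7%, against 13.3% of all 19938 genes on the array). An opposite gap was found for 0 of them (17% of all genes). A gap of at least 2-fold in the direction of Cbx5 was found for 5 of the 47 and for 14 of the 19938. HP1aKO was below WT in the number 1 libraries for 34 of 47 and above WT in the number 2 libraries for 39 of 47. The median differences were only -0.11 and 0.23 on the log2 scale, and the shares over all genes were not taken. Most of these signals were low: 38 of the 47 genes were below 45 in all 4 ESC libraries.

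Dlk1, the paternally expressed Notch-family ligand at the start of the interval, did not follow Meg3. It was at 5.93, 5.34, 5.72 and 5.10 in ESC WT 1, ESC WT 2, ESC HP1aKO 1 and ESC HP1aKO 2, and parted by number. Dio3, a thyroid hormone deiodinase at its end, lay between 3.66 and 3.87. In EBs, with no lower limit on signal, 17 of the 47 genes were called lower in HP1aKO (2.01% of all genes on the array) and 2 higher (3.03%). The 2 were paternally expressed, Dlk1 (1.57 ± 0.13) and Rtl1 (0.68, adjusted p = 0.0156), whereas Meg3 and Rian fell. Dio3 was not called (0.079 ± 0.16, adjusted p = 0.899). Dlk1 reached 11.35 and 11.29 in EB HP1aKO, from 9.57 and 9.93 with the WT label. Its EB HP1bKO signals, 11.50 and 11.37, were no lower. Yet Meg3 (10.00 and 10.32) and Rian (6.70 and 7.19) lay above both EB WT libraries in EB HP1bKO. High Dlk1 thus did not always go with low Meg3 and Rian, and EB HP1bKO was not tested. Of the 47 genes, 32 were below a signal of 45 on all 12 arrays. Rtl1 was among them, as were several of the genes called lower, such as DQ267101, Mir539 and Mir377. Calls at such signals are less well measured.

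**Figure D5:**
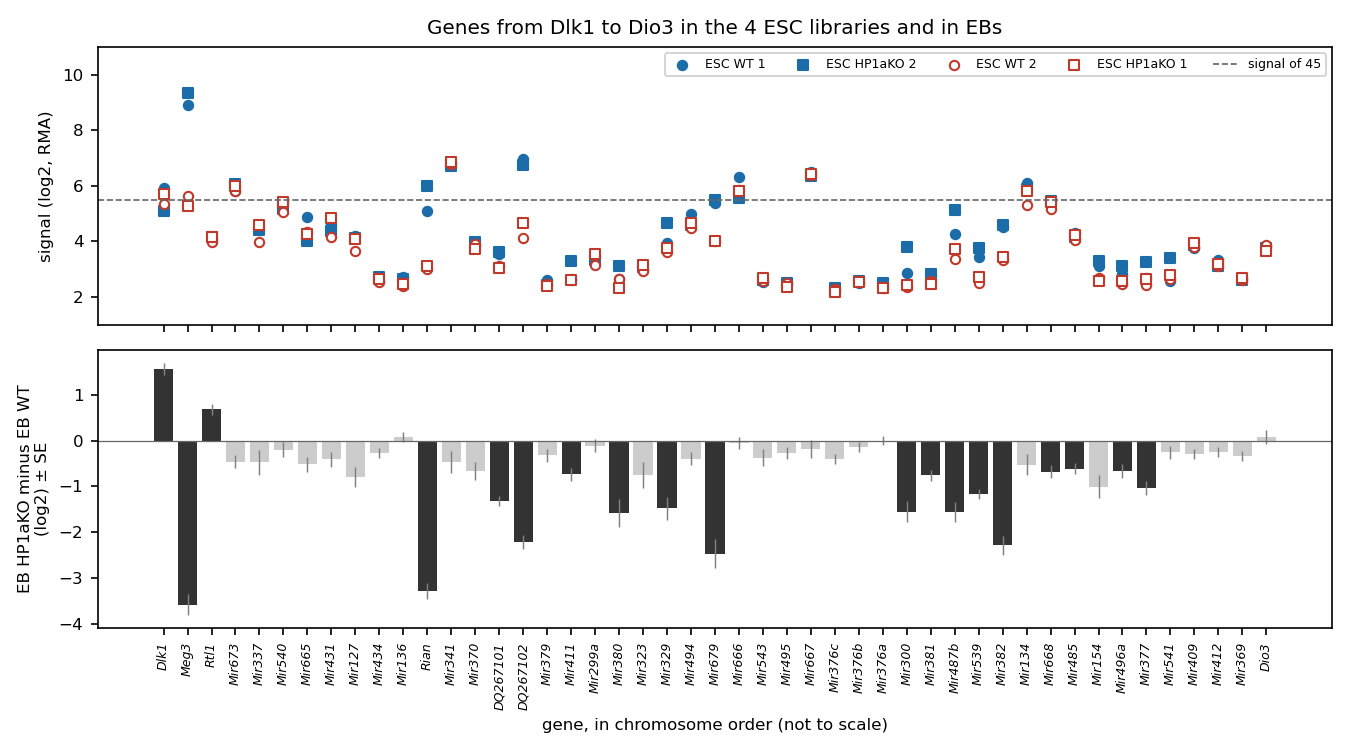
Top, log2 signal in the 4 ESC libraries of the 47 genes of the Dlk1–Dio3 interval on the array, in chromosome order (filled blue, ESC WT 1 and ESC HP1aKO 2; open red, ESC WT 2 and ESC HP1aKO 1; dashed line, signal of 45). Bottom, EB HP1aKO minus EB WT (log2, bars) ± limma's SE, dark where the adjusted p was under 0.05. Meg3, Rian and DQ267102 stand out in both panels, and Dlk1 is higher in EB HP1aKO.

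The 1320 genes called in EBs were next read in each number of ESC libraries. In the number 1 libraries 52.5% had the EB sign (51.6% of all genes tested), and in the number 2 libraries 37.6% (45.3%). The share with the EB sign in number 1 and the reverse sign in number 2 was 42% (35.4% of all genes), and the reverse case made up 27% (29.1%). Among the 554 genes called lower in EB HP1aKO, 58.1% were lower in HP1aKO in the number 1 libraries and 30.3% in the number 2 libraries, against 48.1% and 41.2% of all genes with an EB difference below 0. Among the 766 called higher, 48.4% were higher in number 1 and 42.8% in number 2, against 54.2% and 48.3% of all genes with an EB difference above 0. The number 1 libraries thus had the EB sign more often than all genes for the genes called lower and less often for those called higher, and no test was made of these shares. Among the 166 called with at least 2-fold, the shares with the EB sign were 42.8% and 45.8% (51.6% and 45.3% of all genes tested). By sign alone, the pattern was thus not that of the larger EB differences as a whole. Among these 166, 13 differed by 2-fold or more in number 1 in the EB direction and 4 against it, with 1 and 12 in number 2. They include 10 of the crossed genes given above, Cbx5 among them. At 2-fold or more in the ESCs, 35 of the EB-called genes differed in number 1 in the EB direction and 19 against it (102 and 98 of all genes tested). In number 2 these counts were 6 and 24 (32 and 48 of all genes).

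Of the EB-called genes, 14 had a 2-fold crossed gap placing the number 1 libraries in the EB order, and 0 had one placing them against it. Over all 10880 genes the same counts by the sign of the EB difference were 15 and 6. The 14 are the 11 genes called lower and the 3 called higher that were given above, so they are no further result. Cbx5, by which the libraries were chosen, is among them, as are Meg3, Rian, DQ267102, Mir679 and Mir382 of a single interval. The widest gaps against the EB order were narrower than 2-fold. Lpl, the lipoprotein lipase gene, was at 6.07, 4.99, 5.24 and 6.11 in ESC WT 1, ESC WT 2, ESC HP1aKO 1 and ESC HP1aKO 2, and 1.01 ± 0.11 higher in EB HP1aKO (adjusted p = 0.00147). Dppa2, a pluripotency gene, was at 9.22, 9.97, 9.83 and 9.12 in the ESCs and 1.57 ± 0.18 lower in EB HP1aKO (adjusted p = 0.00196). Cd109, a surface glycoprotein gene, and Bmp7, a bone morphogenetic protein gene, had gaps of 0.66 and 0.60 against the EB order, and Pla2g1b, a secreted phospholipase gene, one of 0.54. All were smaller than the gap of Cbx5, 1.38. Across the 10880 genes Pearson's r with the EB difference was 0.048 for number 1 and -0.179 for number 2.

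The gene lists were read along the replicate number as well. Of 17 naive pluripotency genes 13 parted by number (76.5%, against 56.4% of all genes) and 5 with at least 2-fold, all higher in number 2 (0.79% of all genes). Klf4, a naive factor, was at 7.21, 8.73, 7.68 and 8.69, and Prdm14, which guards the naive state, at 5.16, 6.82, 4.98 and 6.42 in ESC WT 1, ESC WT 2, ESC HP1aKO 1 and ESC HP1aKO 2. Of 13 formative and primed genes 12 parted by number (92.3%), and the 3 with at least 2-fold were higher in number 1 (0.689% of all genes). Fgf5, the growth factor typical of primed cells, was at 9.11, 6.42, 8.19 and 6.99, and Fst, the activin antagonist follistatin, at 9.29, 5.53, 8.68 and 5.62. Cbx5-like or opposite gaps of 2-fold were found for 0 genes of either list.

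Other lists were read in the same way. Of 44 small nucleolar RNA genes 42 parted by number (95.5%), 14 of them with at least 2-fold and higher in number 2. Of 17 core pluripotency genes 13 parted by number (76.5%), with Pou5f1 between 11.24 and 11.35 in the 4 libraries. Of 26 heterochromatin and DNA methylation factors, 16 parted by number (61.5%) and 6 crossed (23.1%), near the 56.4% and 31% of all genes, with 0 gaps of 2-fold. Of 17 p53 target genes, 7 were called higher in EB HP1aKO and 0 lower (7.04% and 5.09% of all genes), with a median EB difference of 0.40 against 0.03 over all genes. In the ESCs the list's median difference was -0.03 in number 1 and 0.41 in number 2, so here it was number 2 that lay nearer to the EBs.

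Over the lists with at least 10 genes tested, the share that parted crossed ran from 2.27% for the small nucleolar RNA genes to 43.8% for the ribosomal protein genes, around the 31% of all genes. None of the 16 ribosomal protein genes had a crossed gap of 1.5-fold. Of 12 germline genes sensitive to DNA methylation 5 were crossed (41.7%), and Tdrkh, a piRNA pathway gene, went with Cbx5 at 6.09, 5.20, 5.03 and 5.86, whereas Tex19.1 went the other way. Of 19 genes of the FGF and ERK response 8 were crossed (42.1%), and of 20 BMP and Nodal genes 8 (40%), in each list with 1 gene that went with Cbx5 at 1.5-fold or more. Of 20 recent zinc finger genes 8 were crossed (40%), with 2 opposite gaps of 1.5-fold or more. Over all 10880 genes tested, 42 went with Cbx5 at 1.5-fold or more and 37 went opposite to it.

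Feeder fibroblast markers also moved with the number and not with Cbx5. Of 16 tested, 14 parted by number (87.5%, against 56.4% of all genes), and 7 with at least 2-fold, all higher in number 1 (0.689% of all genes). Their summed linear signal over 17 genes was 5998 in ESC WT 1, 3379 in ESC WT 2, 4668 in ESC HP1aKO 1 and 3828 in ESC HP1aKO 2. Col1a2, a collagen chain of fibroblasts, was at 9.10, 5.66, 8.30 and 5.77. The libraries high in Cbx5 were thus the highest and the third of the 4 in these markers. The summed signal of 10 ESC markers was 14817, 22431, 17600 and 21483, against 1796 to 2361 in the 4 EB libraries. The part of these cell differences in the crossed genes was not tested.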

How the data were processed

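The deposited values are log2 signals that the authors made with the robust multi-array average (RMA) in Affymetrix Expression Console, with versions and genome build not given in the sources used here. RMA adjusts background, equalizes the arrays' distributions and summarizes probes, so differences in total RNA are not kept. The methods name an exon array, whereas the feature numbers matched the platform annotation of Mouse Gene 1.0 ST. Of 35556 features, the 21789 with a single gene symbol were used (21698 matched to RefSeq), while 1621 had several symbols and 12146 had none, and the feature with the highest mean stood for a gene, which left 19938 genes. Of these, 10880 exceeded a signal of 45 (the methods' limit) on at least 1 of 12 arrays and were tested. With 2 arrays per group, their number limits the precision.

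Groups followed the labels. Tests used limma 3.58.1 in R 4.3.3 with 1 mean per group, empirical Bayes, two-sided p-values and Benjamini-Hochberg adjustment over all genes tested, with a threshold of 0.05. The ESC comparison used the 6 ESC arrays, the EB comparison the 6 EB arrays, and the difference between them all 12. Scripts were tested on simulated data. Members and gene lists were chosen with earlier results of these data known. The libraries were chosen by Cbx5 in ESCs, and the rule for named genes took Cbx5, Cbx1, Cbx3, Hprt, Meg3, the 15 widest gaps in each direction (locus-number symbols left out), the 5 widest ESC gaps with and against the EB difference among EB-called genes, the 5 lowest ESC p and members of 27 gene lists. Same-numbered ESC replicates of WT and HP1aKO deviated together (r = 0.401 over genes of the replicate differences) and EB replicates hardly did (r = 0.112), but 2 numbers do not settle a pairing. Alternatives were another limit on signal, centring, uncollapsed features, the number as a block, array weights, a trended prior, other sets of arrays, each library left out, and other gap sizes. A two-cell-like list had 0 genes above the limit. Positions from the RefSeq gene table were used only for the order of genes. Figures were drawn with matplotlib 3.10.9.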

Additional observations from a re-analysis of the deposited data

Results flagged for a closer look

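The HP1aKO effect differed between EBs and ESCs, by limma's test of the difference itself on all 12 arrays, for 25 genes (0.23% of genes tested, adjusted p under 0.05). Among them was Edn1, the endothelin 1 gene, which lay below a signal of 45 in all 4 ESC libraries (3.38 to 4.07 on the log2 scale) and in both EB WT libraries (4.21 and 4.44) and was at 6.38 and 6.29 in EB HP1aKO. Its difference by label was not called in ESCs (0.52 ± 0.20, adjusted p = 0.9999, on these low signals), was 2.01 ± 0.11 in EBs (adjusted p = 0.000117), and the effects differed by 1.49 ± 0.21 (adjusted p = 0.0307). That call was lost with array weights (adjusted p = 0.126), with a trended prior (0.103) and when any 1 of ESC HP1aKO 1, ESC HP1aKO 2, EB WT 1, EB WT 2, EB HP1aKO 1 or EB HP1aKO 2 was left out (0.0553 to 0.217). For Cbx5 the difference between the states was -1.22 ± 0.80 (adjusted p = 0.9994) with all libraries. Without the libraries labelled ESC WT 2 and ESC HP1aKO 2 it was 0.45, from 1 array of each ESC label. That value was set by the choice, since Cbx5 went against the label in the libraries left out.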

How the results depend on the processing

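The label comparison in ESCs called 0 genes in all 16 alternatives. The EB count of 1320 became 863 with the replicate number as a block, 355 by the pairwise 1.5-fold rule and 135 in the fit on all 12 arrays, and lay between 403 and 965 with 1 library left out (403 without EB HP1aKO 2, 409 without EB HP1aKO 1, 815 without EB WT 1). Of the 1320, 334 were called in all 4 such fits. The count of 25 for the difference between states became 14 at a limit of 100 on signal, 40 without a limit, 57 with the number as a block, 13 with array weights, 161 without ESC WT 2 and ESC HP1aKO 2, and 12 to 84 with 1 library left out (84 without ESC WT 2, 39 without ESC HP1aKO 1, 13 without EB WT 1, 12 and 13 without EB HP1aKO 1 and 2). The 14 and 7 crossed genes became 42 and 37 at a gap of 1.5-fold, and at 2.5-fold the 14 became 8. The share of EB-called genes with the EB sign moved to 34.6% in number 2 with centred arrays and to 48.1% in number 1 with calls from 12 arrays. Uncalled differences changed sign as follows. In ESCs by label the difference was -1.62 for Cbx5, -3.64 for Meg3 and 1.92 for Hprt in the number 1 libraries alone, and with 1 library left out it ran from -0.94 to 1.02, from -1.99 to 2.08 and from -3.41 to 0.74. For EB minus ESC it was 0.45 for Cbx5 and 0.069 for Meg3 without ESC WT 2 and ESC HP1aKO 2. Those libraries were the ones whose Cbx5 went against the label, so the Cbx5 value was set by the choice. In EBs Zdhhc2 was at -0.027 with centred arrays, and with 1 library left out Commd3 ran from -0.17 to 0.16, Zdhhc2 from -0.15 to 0.17, Macroh2a2 from -0.015 to 0.25 and Wfdc15a from -0.096 to 0.059. Among the 21 crossed genes the block changed the EB call of Grhl2 only (adjusted p = 0.0897). Among the single-gene EB values under the alternatives, 325 kept direction and call and 38 lost the call with direction kept, 18 of these in the fit on 12 arrays.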

Other observations

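Also among the 25 genes whose HP1aKO effect differed between states were Myl2, Gja5 and Airn, which were named after their values were seen. All 3 lay below a signal of 45 in the 4 ESC libraries, where their differences were not called. Myl2, a ventricular myosin light chain, differed between HP1aKO and WT by 0.10 in ESCs and 2.63 in EBs, and the difference between the states was 2.53 ± 0.23 (adjusted p = 0.0035). Gja5, a gap junction protein of conducting heart cells and arteries, differed by 0.06 in ESCs and 2.78 in EBs (adjusted p = 0.000853). Airn, a paternally expressed noncoding RNA, differed by -0.14 in ESCs and -2.54 in EBs (adjusted p = 0.00412).

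Among the 4456 features above a signal of 45 that carried no symbol or several, 3 had a gap of at least 2-fold in the direction of Cbx5 (0.0673%). The opposite gap was found for 6 (0.135%). The widest were 2.67 and 1.58 on the log2 scale. Among the genes tested the shares were 0.129% and 0.0643%, so the larger count there in the direction of Cbx5 was not seen in these features.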
